A study of Rattus norvegicus with 24 samples.

Results

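Genes of muscle fuel use were followed in RNA from the plantaris, a small muscle of the calf, in female rats. They are Ppargc1a, Pdk4, Cpt1b and Ucp3, listed in the deposited table as ENSRNOG00000004473, ENSRNOG00000009565, ENSRNOG00000010438 and ENSRNOG00000017716. They were chosen by these IDs, 4 of the 31998 genes in the table, and all 4 had enough reads to be tested among 16661 genes. The symbols come from the rule that chose the genes: the deposited table holds IDs alone, and the gene table used here pairs 0 of its genes with an Ensembl ID. The rats belonged to the HRT and LRT lines, which were bred for high and low gains in running capacity with endurance training, with an age of 14 months, and represent generation 19. In the overload groups the gastrocnemius and soleus had been removed on one side, which loads the remaining plantaris, and the muscle was taken after 14 days. The other groups are labelled as controls, and it is not stated whether these are muscles of other rats or of the intact leg. There were 6 RNA-seq libraries of whole-muscle RNA in each of HRT control, LRT control, HRT overload and LRT overload. Nothing in the labels says that replicates are separate animals, so p-values measure only the spread between these samples.

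Resting and lightly working muscle draws much of its energy from fatty acids. Cpt1b is the muscle form of the outer mitochondrial membrane enzyme that joins long-chain fatty acids to carnitine, the step that commits them to entry into the mitochondrion. Pdk4 is a kinase that phosphorylates and slows the pyruvate dehydrogenase complex, which spares glucose, and its mRNA is known to rise with fasting. Ucp3 is an inner-membrane carrier protein of skeletal muscle mitochondria whose mRNA also rises with fasting and with raised blood fatty acids. Ppargc1a encodes PGC-1α, a coactivator that binds nuclear receptors and other factors and raises the transcription of mitochondrial and fat oxidation genes.

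The 250 bases before the transcription start are shown for 3 of the 4 genes, because nuclear receptors, cAMP signalling and myogenic factors are known to act on genes of this kind. They come from RefSeq on the GRCr8 build, not the build of the counts, and each reads 5′ to 3′ on the gene's own strand. Capitals mark matches to the CRE, the cAMP response element searched as TGACGTCA, or to AGGTCA, the half-site of nuclear receptors, on either strand. Cpt1b is named only.
Ppargc1a (chr14:63634058-63634307, + strand): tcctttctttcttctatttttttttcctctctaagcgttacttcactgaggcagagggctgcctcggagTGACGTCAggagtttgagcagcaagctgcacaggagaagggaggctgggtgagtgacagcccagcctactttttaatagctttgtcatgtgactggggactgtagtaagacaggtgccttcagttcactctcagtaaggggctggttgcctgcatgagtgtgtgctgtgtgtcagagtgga
Pdk4 (chr4:34568330-34568579, − strand): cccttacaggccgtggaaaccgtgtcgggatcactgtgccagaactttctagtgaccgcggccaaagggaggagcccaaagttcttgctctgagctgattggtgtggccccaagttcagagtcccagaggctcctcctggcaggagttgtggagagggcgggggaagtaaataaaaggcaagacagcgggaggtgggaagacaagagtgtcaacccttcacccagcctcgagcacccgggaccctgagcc
Ucp3 (chr1:164227660-164227909, + strand): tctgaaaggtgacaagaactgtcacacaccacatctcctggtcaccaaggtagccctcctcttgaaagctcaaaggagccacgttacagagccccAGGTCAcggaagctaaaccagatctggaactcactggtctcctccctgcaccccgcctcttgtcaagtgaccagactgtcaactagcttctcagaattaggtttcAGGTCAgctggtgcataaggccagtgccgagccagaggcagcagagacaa

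The Ppargc1a window holds 1 CRE, which begins 181 bases before the start, and 1.59% of 33469 windows of the same length hold one. The Ucp3 window holds AGGTCA at 2 places, 155 and 50 bases before the start, and 14.1% of all windows hold at least 1. E-boxes, the CANNTG sites of basic helix-loop-helix factors, were found at 2 places each in Ppargc1a and Ucp3 and at 0 in Pdk4, against 65.5% of windows with at least 1. No window held the ERR element TCAAGGTCA, the FOXO element GTAAACA, the MEF2 element CTATTTTTA or the DR1 element (AGGTCA, any base, AGGTCA), which 0.388%, 3.21%, 0.463% and 0.0508% of all windows hold. Matches on both strands were counted, and AGGTCA also lies inside the ERR and DR1 elements. These matches describe the letters of the windows alone.

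Library totals ran from 26997674 to 34254957 estimated counts. The members had 290 to 15393 counts per library, so that counting error was at most 5.87% of a count. Overloaded muscle gave RNA of higher integrity: the RNA integrity number averaged 8.27 ± 0.216 (SD, n = 6) in HRT control, 8.97 ± 0.327 in HRT overload, 8.28 ± 0.147 in LRT control and 8.67 ± 0.258 in LRT overload. So did the scaling factor that trimmed mean of M values (TMM) gives each library, at 0.942 and 1.16 in HRT control and overload and 0.883 and 1.05 in LRT control and overload. With scaling by library totals alone the median gene moved up with overload by 0.27 in HRT and 0.22 in LRT on the log2 scale. Levels below are CPM, read counts scaled to a common total after TMM. They are not divided by gene length, so they compare groups for 1 gene and not genes with each other. In whole muscle, fewer muscle fibres and less of a transcript per fibre cannot be told apart. No ID could be paired with a marker of fibres, fat, vessels or macrophages, so the tissue label was not checked against markers.

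**Figure D1:**
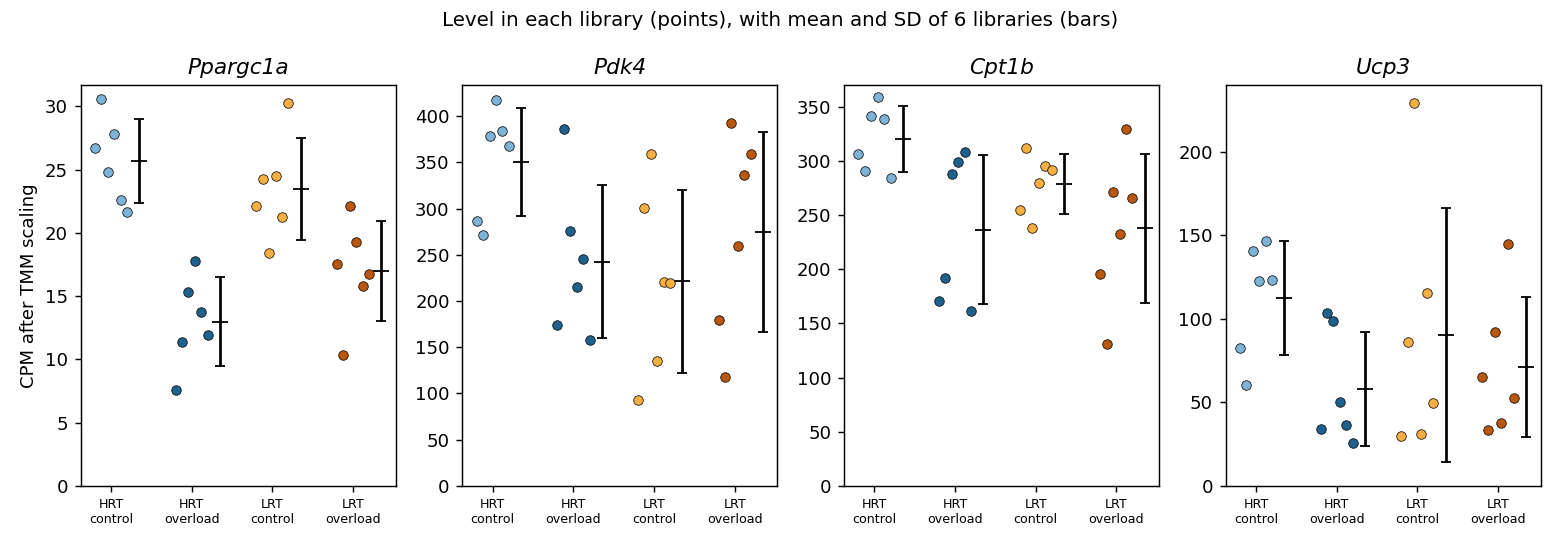
Level of each gene in CPM after TMM scaling (vertical axis, from 0) in the 6 libraries of each group (points), with the group mean and SD (bars). The HRT overload libraries for Ppargc1a, at 7.60 to 17.8 CPM, lie below all HRT control and all LRT control libraries. All other pairs of groups drawn for a gene overlap. How many of all tested genes have groups that do not overlap was not counted.

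Ppargc1a, the coactivator, fell with overload in both lines. In HRT control muscle it ran from 21.6 to 30.5 CPM with a median of 25.7 (mean 25.7 ± 3.35, SD, n = 6). In HRT overload it ran from 7.60 to 17.8 CPM with a median of 12.8 (mean 13.0 ± 3.51). All 6 overloaded HRT libraries lay below the lowest control. How many of all tested genes were separated in this way was not counted, and 22.4% of them had a smaller p in this comparison. On the log2 scale this was a change of −0.99 ± 0.170 (SE; edgeR adjusted p = 2.56e-05), which leaves 0.505 of the control level, and only 3.43% of tested genes had a lower value. This call held in all 23 other settings, with log2 fold changes from −1.10 to −0.72. With RNA integrity as a covariate the value was −1.07 (edgeR adjusted p = 0.0019). The integrity numbers ran from 8 to 8.6 in HRT control and from 8.6 to 9.4 in HRT overload. The fit with this covariate therefore cannot tell RNA integrity and overload apart.

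In LRT muscle the estimate for Ppargc1a was nearer to 0, and the difference between the lines did not pass its own test (edgeR adjusted p = 0.347). Control libraries ran from 18.4 to 30.3 CPM with a median of 23.2 (mean 23.5 ± 4.01, SD, n = 6), and overloaded libraries from 10.4 to 22.1 CPM with a median of 17.1 (mean 17.0 ± 3.94). The groups overlapped, although 4 of 6 overloaded libraries lay below each control and all 6 below the control median. On the log2 scale the change was −0.47 ± 0.169 (SE; edgeR adjusted p = 0.0213), to 0.724 of the control level. The call was lost in 5 of 23 other settings. Without LRT control replicate 6 the value was −0.38 (edgeR adjusted p = 0.0633), without LRT overload replicate 2 it was −0.36 (edgeR adjusted p = 0.0581), and with scaling by totals alone it was −0.24 (edgeR adjusted p = 0.171), which is −0.46 relative to the median gene.

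Cpt1b, the carnitine transferase, was the other gene past the threshold. In HRT control it ran from 285 to 359 CPM with a median of 323 (mean 320 ± 30.5, SD, n = 6), and in HRT overload from 161 to 309 CPM with a median of 240 (mean 237 ± 69.0). The overloaded libraries fell into 2 levels: replicates 1, 2 and 6 lay at 171, 192 and 161 CPM, below each control, and replicates 3, 4 and 5 at 288, 299 and 309 CPM, inside the control range. Together they gave, in log2 units, a change of −0.44 ± 0.177 (SE; edgeR adjusted p = 0.035), to 0.739 of the control level. Scaled by totals alone, replicates 1, 2 and 6 lay at 209, 246 and 204 CPM. Replicates 3, 4 and 5 then lay at 306, 303 and 337 CPM, so TMM lowered replicates 1, 2 and 6 more. After TMM, Ppargc1a lay at 7.60, 11.4 and 11.9 CPM in replicates 1, 2 and 6. In replicates 3, 4 and 5 it was higher, at 15.3, 17.8 and 13.8 CPM. Pdk4 and Ucp3 were highest in replicate 2. Whether the 2 levels of Cpt1b reflect a difference between whole libraries was not tested.

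The Cpt1b call was close to the threshold and was lost in 10 of 23 other settings, with log2 fold changes from −0.62 to −0.17. It was lost without HRT overload replicate 1, 2 or 6 (−0.36, −0.38 and −0.32) and without HRT control replicate 3, 4 or 5 (−0.42, −0.40 and −0.42). With scaling by totals alone the value was −0.17 (edgeR adjusted p = 0.327), or −0.44 relative to the median gene, and with RNA integrity as a covariate it was −0.62 (edgeR adjusted p = 0.0568). In LRT, Cpt1b ran from 238 to 312 CPM in control, with a median of 286, and from 131 to 330 CPM after overload, with a median of 249. There 3 overloaded libraries lay below each control and 1 above, and the log2 fold change of −0.23 (95% interval −0.59 to 0.13) did not pass the test (edgeR adjusted p = 0.276).

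Pdk4, the pyruvate dehydrogenase kinase, passed the overload test in neither line, and its estimates had opposite signs. In HRT it ran from 271 to 418 CPM in control, with a median of 373 (mean 351 ± 58.4, SD, n = 6), and from 158 to 386 CPM after overload, with a median of 230 (mean 242 ± 82.6). Overloaded replicate 2, at 386 CPM, was the only HRT overload library above the control median. The estimate was −0.53 on the log2 scale (95% interval −1.15 to 0.08; edgeR adjusted p = 0.12). Without that library it was −0.72 and passed (edgeR adjusted p = 0.046), and in a fit to the HRT groups alone −0.52 and passed (edgeR adjusted p = 0.0346). In LRT it ran from 93.1 to 358 CPM in control, with a median of 220 (mean 221 ± 99.1), and from 118 to 392 CPM after overload, with a median of 298 (mean 274 ± 108). These groups overlapped over most of their range, and the log2 fold change of 0.31 had a 95% interval of −0.30 to 0.92 (edgeR adjusted p = 0.386).

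Ucp3, the inner-membrane carrier, had an estimate in HRT near that of Ppargc1a, but a far wider error. HRT control libraries ran from 60.1 to 146 CPM with a median of 123 (mean 112 ± 34.0, SD, n = 6), and HRT overload libraries from 25.5 to 104 CPM with a median of 43.3 (mean 58.0 ± 34.3). All 6 overloaded libraries lay below the control median and 4 below the lowest control. The log2 fold change was −0.95 ± 0.487 (SE; 95% interval −1.97 to 0.06) and did not pass (edgeR adjusted p = 0.0929). It passed in 4 of 23 other settings, among them without HRT overload replicate 2 (−1.20, edgeR adjusted p = 0.0498), by limma-voom (−1.09, adjusted p = 0.0429) and in a fit to the HRT groups alone (−0.94, edgeR adjusted p = 0.0376). LRT control libraries ran from 29.9 to 229 CPM with a median of 67.7, and LRT overload libraries from 33.3 to 145 CPM with a median of 59.0. The LRT log2 fold change was −0.35 (95% interval −1.35 to 0.66; edgeR adjusted p = 0.565), and without LRT control replicate 3, the library at 229 CPM, it was 0.18.

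Over the 4 genes, 2 were called lower and 0 higher in HRT at an edgeR adjusted p under 0.05. By the same threshold 31.2% of all tested genes were called lower there and 31.9% higher. In LRT 1 was called lower and 0 higher, where 28.3% of tested genes were called lower and 28.9% higher. The median log2 fold change over the members was −0.74 in HRT and −0.29 in LRT, against −0.02 over all tested genes in each line. With 4 members, these counts do not set the group apart from other genes.

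**Figure D2:**
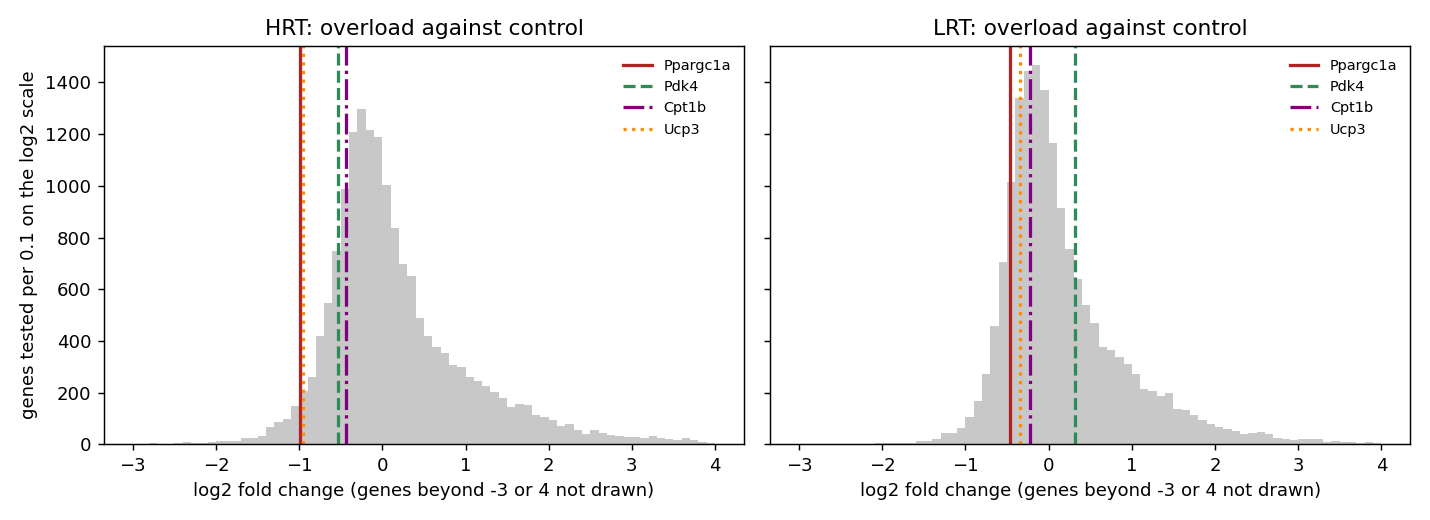
Number of tested genes (vertical axis) at each log2 fold change with overload (horizontal axis, bins of 0.1) in HRT and LRT, with the 4 genes as vertical lines. In HRT Ppargc1a and Ucp3 stand near −1 in the lower tail, with 3.43% and 3.83% of genes below them, and in LRT Pdk4 stands above the peak at 0.31.

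The difference between the responses of the lines was tested for each gene, as LRT minus HRT. For Ppargc1a it was 0.52 ± 0.238 on the log2 scale (SE; 95% interval 0.03 to 1.01), where a positive value is a smaller fall in LRT, with an unadjusted p of 0.0395 and an edgeR adjusted p of 0.347. For Pdk4 it was 0.85 ± 0.419 (95% interval −0.02 to 1.71; edgeR adjusted p = 0.38). For Cpt1b and Ucp3 it was 0.21 (−0.31 to 0.72; edgeR adjusted p = 0.741) and 0.61 (−0.81 to 2.03; edgeR adjusted p = 0.72). All 4 estimates were positive and 0 passed by edgeR, DESeq2 or limma-voom, with 1 at an unadjusted edgeR p under 0.05, in a comparison where 0.048% of tested genes passed. For each of the 4 genes the estimate stayed positive and did not pass the test in any of 34 other settings. Its size depended on single libraries: leaving out LRT control replicate 3 brought Ucp3 to 1.14 and leaving out LRT overload replicate 5 to 0.27, and Cpt1b was 0.090 when LRT overload replicate 5 was omitted and 0.33 when LRT overload replicate 2 was. The lines are therefore not shown to differ in their response for these genes, and the intervals for Ppargc1a, Pdk4 and Ucp3 reach past a 2-fold difference.

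**Figure D3:**
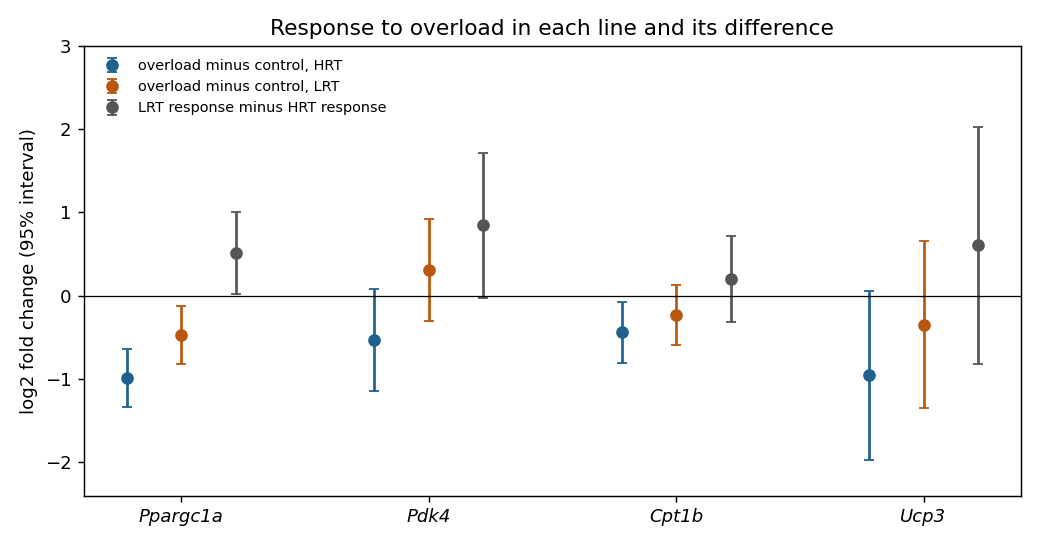
Log2 fold change with overload in HRT (blue) and LRT (orange), and the LRT response minus the HRT response (grey), with 95% intervals from the edgeR fit. The interval of Ppargc1a lies below 0 in both lines, and the widest intervals are those of Ucp3.

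Levels were then compared between lines in each state. In control muscle Pdk4 was at a mean of 221 ± 99.1 CPM in LRT and 351 ± 58.4 CPM in HRT (SD, n = 6), and 4 of 6 LRT libraries lay below each HRT library. The log2 fold change, LRT over HRT, was −0.67 ± 0.297 (SE; unadjusted p = 0.0348, edgeR adjusted p = 0.258). Ppargc1a, Cpt1b and Ucp3 differed by −0.13, −0.20 and −0.32 (edgeR adjusted p = 0.757, 0.621 and 0.803). With 1 library left out at a time Ucp3 ran from −0.85, without LRT control replicate 3, to −0.14, without LRT control replicate 1, and by limma-voom it was −0.65. Ppargc1a ran from −0.22, without LRT control replicate 6, to −0.070, without LRT control replicate 3, and none of these values passed. Of the 4 genes 0 passed by edgeR, DESeq2 or limma-voom, with 1 at an unadjusted edgeR p under 0.05, where 1.97% of tested genes passed by edgeR.

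After overload Ppargc1a was at 17.0 ± 3.94 CPM in LRT and 13.0 ± 3.51 in HRT (SD, n = 6). The log2 fold change, LRT over HRT, was 0.39 ± 0.170 (SE; unadjusted p = 0.0311, edgeR adjusted p = 0.178). It passed in 1 of 23 other settings, without LRT overload replicate 2 (0.50, edgeR adjusted p = 0.0472). Pdk4 and Ucp3 differed by 0.18 and 0.29 (edgeR adjusted p = 0.763 and 0.767), and without LRT overload replicate 5 the Ucp3 value was −0.05. Cpt1b differed by 0.01 (95% interval −0.36 to 0.37; edgeR adjusted p = 0.989), a value whose sign turned with scaling by totals. Of the 4 genes 0 passed with all libraries by edgeR, DESeq2 or limma-voom, with 1 at an unadjusted edgeR p under 0.05, where 3.09% of tested genes passed by edgeR. In the order of mean levels, both control groups stood above both overload groups for Ppargc1a and Cpt1b. The difference between LRT and HRT control did not pass the test for either gene (edgeR adjusted p = 0.757 and 0.621). For Cpt1b, however, all 6 LRT control libraries lay below the HRT control median, and 3 lay below each HRT control library. For Pdk4 the order was HRT control, LRT overload, HRT overload and LRT control, and for Ucp3 HRT control, LRT control, LRT overload and HRT overload, with the range of each group overlapping that of the next.

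The ratio of 2 members within a library does not depend on scaling, and shows whether they changed unequally. The 6 ratios were compared in 4 contrasts, 24 exact permutation tests of 6 against 6 libraries, two-sided, with a smallest possible p of 0.00216. The largest shift by its p was that of Ppargc1a over Cpt1b in HRT, whose ratio of counts ran from 0.0668 to 0.105 in control and from 0.0445 to 0.0741 after overload. The log2 ratio changed by −0.54 (exact permutation p = 0.00649, adjusted p = 0.156 over the 24 tests), and the groups overlapped. In LRT the same ratio changed by −0.20 (exact permutation p = 0.247). Pdk4 over Ucp3 changed by 0.51 in HRT (exact permutation p = 0.0476, adjusted p = 0.364) and by 0.48 in LRT (exact permutation p = 0.232). Of the 24 ratios 0 passed after adjustment, and 2 had an unadjusted p under 0.05.

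The members differed widely in how far libraries of 1 group lay apart. The SD of log2 CPM pooled within groups was 0.86 for Ucp3, 0.56 for Pdk4, 0.33 for Cpt1b and 0.32 for Ppargc1a, against a median of 0.19 over 12229 genes whose mean log2 CPM reached 1. For Ucp3 and Pdk4, 99.2% and 97.5% of these genes had a smaller SD. LRT control muscle held the widest spread of Ucp3, with the highest library at 7.66 times the lowest, and of Pdk4, at 3.85 times. These libraries held 808 to 6569 counts of Ucp3 and 2515 to 10277 counts of Pdk4, so counting error was small beside this spread. In HRT the coefficient of variation was larger after overload for all 4 genes, at 27.1% against 13.0% in control for Ppargc1a, 34.1% against 16.7% for Pdk4, 29.2% against 9.54% for Cpt1b and 59.1% against 30.2% for Ucp3. In LRT it was larger after overload for Ppargc1a (23.2% against 17.1%) and Cpt1b (28.9% against 9.86%) and smaller for Pdk4 (39.5% against 44.8%) and Ucp3 (59.1% against 84.2%). With scaling by totals alone the overloaded values of Cpt1b were 20.8% and 26.4% in HRT and LRT and its control values 10.4% and 12.5%. Those of Ppargc1a were then 19.9% and 19.4% after overload and 13.6% and 17.2% in control, so little difference was left in LRT. Pdk4 and Ucp3 kept their directions. The median SD over all genes went from 0.13 to 0.21 in HRT and from 0.16 to 0.17 in LRT, and the difference in spread was not tested.

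**Figure D4:**
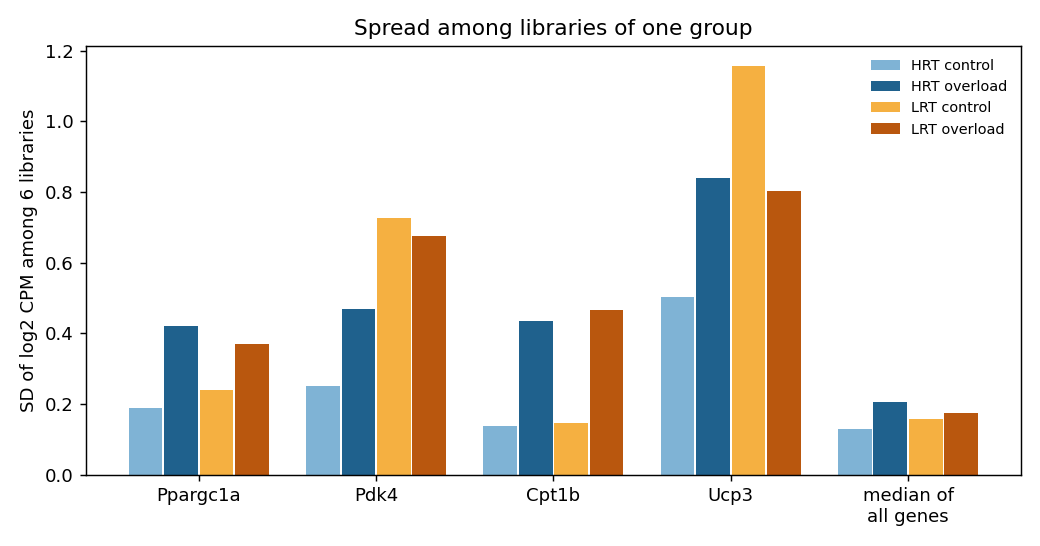
SD of log2 CPM among the 6 libraries of each group (vertical axis, from 0) for the 4 genes and the median SD over 12229 genes. Ucp3 has the tallest bar in every group, up to 1.16 in LRT control, and Cpt1b is near the median of all genes in controls and above it after overload.

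Libraries with much Pdk4 also had much Ucp3. In LRT control, replicates 1 and 4 were the lowest for both genes (93.1 and 135 CPM of Pdk4, 29.9 and 30.8 CPM of Ucp3), and replicate 3 was the highest for both (358 and 229 CPM). In HRT overload, replicate 2 was the highest for both (386 and 104 CPM) and replicate 6 the lowest (158 and 25.5 CPM). After the mean of each group was taken away, the log2 CPM of the 2 genes correlated over the 24 libraries with Pearson's r = 0.795 (permutation p = 0.00019, adjusted over 6 pairs 0.00114) and Spearman's rho = 0.85 (permutation p = 3e-05, adjusted 0.00018). Without the 2 libraries farthest from the median r was 0.768. Within the groups of 6 it was 0.92 in HRT control, 0.887 in HRT overload, 0.876 in LRT control and 0.615 in LRT overload. Of the 6 pairs of members, it alone passed in control libraries taken by themselves (r = 0.879, permutation p adjusted 0.0122; rho = 0.832, permutation p adjusted 0.0329). In overloaded libraries it had r = 0.715 (permutation p adjusted 0.0382) and rho = 0.727 (permutation p adjusted 0.0851), so the rank correlation did not pass there, and 2 other pairs passed by Pearson's r with the same adjusted p.

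Ppargc1a and Cpt1b also varied together, with r = 0.67 (permutation p = 0.00505, adjusted 0.0152) and rho = 0.583 (permutation p adjusted 0.0389). This relation rested in part on HRT overload replicate 1 and LRT overload replicate 2, without which r was 0.448. In overloaded libraries r was 0.737 (permutation p adjusted 0.0382), or 0.467 without the 2 farthest libraries, and rho was 0.664 (permutation p adjusted 0.104), which did not pass. In control libraries r was 0.366 (permutation p adjusted 0.545). Pdk4 and Cpt1b had r = 0.535 (permutation p adjusted 0.0269) and rho = 0.459 (permutation p adjusted 0.0749), with r = 0.378 without LRT control replicate 1 and LRT overload replicate 2. With scaling by totals alone neither of these 2 pairs passed. Ppargc1a showed no relation past the threshold with Pdk4 (r = 0.254, permutation p adjusted 0.336; rho = 0.0322, permutation p adjusted 0.889) or with Ucp3 (r = −0.00827, permutation p adjusted 0.972; rho = −0.102, permutation p adjusted 0.792). Cpt1b and Ucp3 had r = 0.36 (permutation p adjusted 0.144) and rho = 0.375 (permutation p adjusted 0.136).

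**Figure D5:**
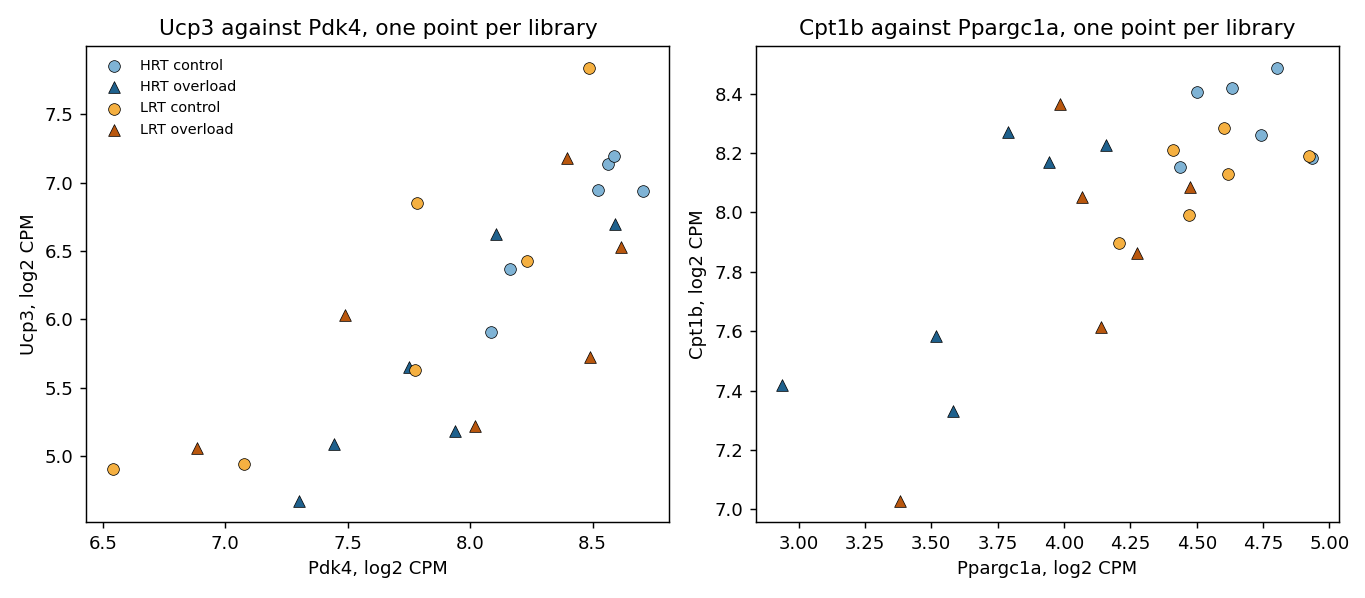
Log2 CPM of Ucp3 against Pdk4 and of Cpt1b against Ppargc1a, 1 point per library (circles control, triangles overload; blue HRT, orange LRT). Ucp3 goes up with Pdk4 within each group, while in the other plot the overloaded libraries lie to the left of most controls and the lowest ones are low in both genes.

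The genes most like each member were taken from 12228 other genes by Pearson's r of the same deviations over 24 libraries, given as a description. Ucp3 stood in place 2 for Pdk4 and Pdk4 in place 2 for Ucp3, and in each case 1 gene had an r over 0.8. Cpt1b was of another kind, with 474 genes over 0.8, and its first was ENSRNOG00000010633 (r = 0.979), which fell in HRT (−0.60 on the log2 scale, edgeR adjusted p = 0.0149). Ppargc1a had 34 genes over 0.8, and its first was ENSRNOG00000024960 (r = 0.869), which fell in both lines (−0.87 and −0.78 on the log2 scale, edgeR adjusted p = 8.03e-05 and 0.000329). Cpt1b stood in place 653 for Ppargc1a, and Ppargc1a in place 1352 for Cpt1b. All these points share the libraries and their scaling.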

How the data were processed

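The authors deposited 1 table of estimated counts per Ensembl gene, not normalized, for 24 libraries. Salmon 0.9.1 and the rn6 (Rnor_6.0) build stand in the submitters' processing notes. Annotation, settings and summing to genes: not given in the sources used here. Libraries were prepared with an Illumina TruSeq kit, per the labels' protocols. Estimated counts were rounded. In R 4.3.3 with edgeR 4.0.16, filterByExpr (minimum count 10, minimum total 15) kept 16661 of 31998 genes. 1 quasi-likelihood model of the 24 libraries with TMM scaling had a term for each group, with Benjamini-Hochberg adjustment over all genes and a threshold of 0.05. Standard errors are approximate, from the log2 fold change and its F statistic. Log2 CPM used a prior count of 2 and ratios a pseudocount of 0.5. Alternatives used DESeq2 1.42.0 and limma-voom (limma 3.58.1). Each library was also left out in turn. Ratios were tested by exact permutation. Correlations used 100000 permutations within groups. Code was tested on simulated data, with changes put into genes drawn at random among those with enough counts. For the difference between responses 32.84% of 1.5-fold and 58.21% of 2-fold changes were recovered. In the other comparisons these were 52.24% to 62.69% and 82.09% to 89.55%. The simulation changed 66 or 67 genes at each fold, far fewer than passed with overload in the data. Pdk4 and Ucp3 also spread more than most genes, so these shares do not carry over to the members.

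The members and lists were chosen with earlier results of these data known. Genes named beside the members are those most correlated with each. With no symbols, at most 2 IDs that fell are given. The lists of fat oxidation genes and of cell type markers could not be matched and were not tested. Each library was distinct: for the 60 pairs inside groups, chi-square per degree of freedom was at least 12.6.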

Additional observations from a re-analysis of the deposited data

Results flagged for a closer look

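In HRT overload, the log2 ratio of Pdk4 to Cpt1b counts was 1.01 in replicate 2, far from the other 5 libraries of its group: the gap to the nearest was 0.663 of the whole range, above the limit of 0.625 for 6 samples. Its Pdk4 count was 2.01 times its Cpt1b count, against a median of 0.968 in the group. Of 40 groups of member levels and ratios examined this was the only one so marked, and chance marks about 1 group in 20.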

How the results depend on the processing

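Over 20 results for single genes, 472 of 504 other values kept their direction and their side of the threshold. Ppargc1a in HRT kept both in all 23. The cause of the changes below was not tested. With scaling by totals alone the log2 values were −0.17 for Cpt1b in HRT and −0.24 for Ppargc1a in LRT, both no longer past the threshold, and −0.12 for Cpt1b between lines after overload. That scaling gave 7942 genes higher and 2238 lower with overload in HRT (5319 and 5204 with TMM), 6765 and 1893 in LRT (4808 and 4716), 76 and 186 between lines in control (203 and 125), 225 and 1928 after overload (266 and 248) and 1 and 5 for the difference between responses (4 and 4). With no filter on low counts Cpt1b in HRT was −0.42 and Ppargc1a in LRT −0.43, neither past the threshold. With RNA integrity as a covariate Cpt1b in HRT was −0.62, not past it. By limma-voom Ucp3 in HRT was −1.09 and passed. In fits to 2 groups alone Pdk4 (−0.52) and Ucp3 (−0.94) in HRT passed.

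It is not stated whether same-numbered libraries share an animal or a batch, and correlations of expression cannot settle it. Over 24 same-numbered pairs the correlation of deviations ran from −0.176 to 0.544. Of these 8 were over 0.1 (5 of the 6 between HRT overload and LRT overload, at most 2 of 6 in the other comparisons), and 6 libraries correlated best with their own number. With the replicate block Ucp3 in HRT was −1.05 and passed (edgeR adjusted p = 0.0376), and the block changed no other member's call. With the replicate block and RNA integrity Cpt1b in HRT was −0.49 and Ppargc1a in LRT −0.48, neither past the threshold, and Pdk4 between lines after overload was −0.020. The block moved the 8 genes that differed in response to 1, alone and with RNA integrity, and with RNA integrity the 514 genes between lines after overload to 289.

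Counts over all genes moved as follows. The 8 genes that differed in response were 137 by DESeq2, 2 by limma-voom, 1 with DESeq2 size factors, 5 with no filter, 5 without robust dispersion and 2 with RNA integrity. The 328 genes between lines in control were 619 by DESeq2 and 206 with no filter. The 514 after overload were 1093 by DESeq2, 2153 by totals, 307 with no filter, 785 with RNA integrity and 115 in the 2 groups alone.

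With 1 library left out at a time, in HRT Cpt1b ran from −0.53 to −0.32, Pdk4 from −0.72 to −0.42 and Ucp3 from −1.20 to −0.78. In LRT Ppargc1a ran from −0.56 to −0.36 and Ucp3 from −0.68 to 0.18. Between lines after overload Ppargc1a ran from 0.27 to 0.50, Cpt1b from −0.11 to 0.13 and Ucp3 from −0.047 to 0.53. Counts ran from 1 to 25 for the difference in response, from 154 to 495 between lines in control and from 171 to 1647 after overload. Log2 ratios ran from −0.11 to 0.31 for Ppargc1a over Ucp3 in HRT and from −0.14 to 0.35 between lines after overload. Pdk4 over Cpt1b ran from −0.29 to 0.0019 in HRT, Cpt1b over Ucp3 from −0.53 to 0.095 in LRT and Pdk4 over Ucp3 from −0.26 to 0.041 between lines in control.

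Within groups, scaling by totals gave r = 0.533 for Ppargc1a and Cpt1b and 0.487 for Pdk4 and Cpt1b. Control libraries alone gave 0.366 and 0.244 for these pairs and −0.258 for Ppargc1a and Pdk4, and overloaded libraries alone 0.353 for Ppargc1a and Ucp3. Without the 2 farthest libraries r was −0.0982 for Ppargc1a and Pdk4, 0.448 for Ppargc1a and Cpt1b, −0.313 for Ppargc1a and Ucp3, 0.378 for Pdk4 and Cpt1b and 0.185 for Cpt1b and Ucp3.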

Other observations

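In control libraries Ppargc1a and Ucp3 ran in opposite directions within groups (r = −0.622 over 12 libraries, permutation p = 0.0536, adjusted over 6 pairs 0.161; rho = −0.65, permutation p = 0.0342, adjusted 0.103; r = −0.46 without the 2 farthest libraries). Within HRT control r was −0.758 and within LRT control −0.603. In overloaded libraries it was 0.353 (permutation p adjusted 0.289; rho = 0.28, permutation p adjusted 0.403). This pattern was noticed in the data, and the difference between the states was not tested.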
